A study of Homo sapiens with 6 samples.

Results

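The type III interferon system was followed through 7 genes: the lambda ligands IFNL1, IFNL2, IFNL3 and IFNL4, the receptor subunits IFNLR1 and IL10RB, and IFNB1, the gene of interferon beta, a type I ligand. They were matched by symbol to the identifiers of the count table, where 7 of 7 were found among 60675 identifiers, and 7 passed the filter on low counts. The set was chosen by measured values, namely the expression of the lambda genes in wild-type cells and its fall in RARG-targeted cells. The values of all 7 genes in that comparison are therefore given as a description, without a test.

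All cells were PANC1, an established human pancreatic cancer line, grown in serum-containing medium. Libraries of total RNA came from untreated wild-type cells (WT, 3 libraries) and from PANC1 stably depleted of RARG, the gene of retinoic acid receptor gamma (RARG-KO, 3 libraries). The depletion used Cas9 and a pair of guide RNAs placed around a deletion, transfection, puromycin selection, and expansion and genotyping of single clones. How many clones stand behind the RARG-KO libraries, whether the WT cells passed through the same selection, and whether replicates were separate cultures is not stated in the sources used here. The descriptions of all 3 RARG-KO libraries begin with R2, whose meaning is not stated either, so a single clone is possible and p-values measure only the spread between these libraries. Library totals ran from 29386408 to 30605114 counts for WT, and from 30115051 to 31608089 for RARG-KO. RARG itself had 39.1, 40.6 and 41.6 CPM (counts per 1000000, with TMM-normalized library sizes) in WT and 28.4, 24.1 and 28.5 in RARG-KO, lower in every RARG-KO library, and a sum over the whole gene does not show the deleted part.

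Type III interferons are secreted cytokines that cells make after sensing viral or misplaced nucleic acid through RIG-I-like receptors, Toll-like receptors or cGAS. Transcription factors of the IRF and NF-kB families then switch on the ligand genes. The ligands bind a receptor of IFNLR1, a subunit found mainly on epithelial cells, and IL10RB, which is shared with receptors of other cytokines. The receptor acts through the kinases JAK1 and TYK2 and through transcription factors of the STAT and IRF families. Its target genes are largely the same as those of type I interferon, and in epithelia the receptor is known for local antiviral defence.

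The lambda genes lie side by side on chromosome 19 (positions on GRCh38, GENCODE release 29). IFNL3 (ENSG00000197110) spans 39243553 to 39245129 on the minus strand, IFNL4 (ENSG00000272395) 39246314 to 39248856 on the minus strand, IFNL2 (ENSG00000183709) 39268514 to 39270092 on the plus strand, and IFNL1 (ENSG00000182393) 39296325 to 39298673 on the plus strand. IFNL4 is annotated there as a polymorphic pseudogene and the others as protein-coding genes. IFNLR1 (ENSG00000185436) lies on chromosome 1, 24154157 to 24187959, IL10RB (ENSG00000243646) on chromosome 21, 33266358 to 33310187, and IFNB1 (ENSG00000171855) on chromosome 9, 21077105 to 21077963.

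Because the ligand genes moved together, the sequences before their starts are shown (RefSeq, GRCh38.p14, windows found for 6 of 7 genes). Each is written 5′ to 3′ on the gene's own strand and ends before the outermost annotated start. Capitals mark a pattern of interferon-stimulated response elements (ISRE: GAAA, 2 bases of any kind, GAAA), the IRF core site AAGTGAAA, and the NF-kB consensus, on either strand. The windows are chr19:39296157-39296324 for IFNL1, chr19:39268146-39268395 for IFNL2, chr19:39245251-39245500 for IFNL3 and chr9:21077964-21078192 for IFNB1.
IFNL1: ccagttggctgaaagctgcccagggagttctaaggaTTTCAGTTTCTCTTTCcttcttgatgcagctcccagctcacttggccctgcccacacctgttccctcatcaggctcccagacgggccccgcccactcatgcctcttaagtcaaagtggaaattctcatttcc
IFNL2: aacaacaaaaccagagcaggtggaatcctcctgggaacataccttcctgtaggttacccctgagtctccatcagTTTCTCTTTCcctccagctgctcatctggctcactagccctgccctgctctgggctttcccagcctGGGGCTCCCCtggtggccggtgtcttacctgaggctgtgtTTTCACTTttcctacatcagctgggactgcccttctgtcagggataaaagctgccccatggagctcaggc
IFNL3: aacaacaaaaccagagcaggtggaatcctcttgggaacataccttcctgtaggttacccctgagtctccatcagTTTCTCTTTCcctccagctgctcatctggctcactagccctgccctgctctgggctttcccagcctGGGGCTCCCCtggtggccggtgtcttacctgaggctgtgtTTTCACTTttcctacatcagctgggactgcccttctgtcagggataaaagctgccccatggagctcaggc
IFNB1: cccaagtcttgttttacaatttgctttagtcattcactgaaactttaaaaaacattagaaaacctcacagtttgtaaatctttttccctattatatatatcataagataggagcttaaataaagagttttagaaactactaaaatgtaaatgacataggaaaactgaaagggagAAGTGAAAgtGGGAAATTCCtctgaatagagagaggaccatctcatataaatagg

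The windows of IFNL2 and IFNL3 differed at 1 of 250 bases, T31C, with IFNL3 as the reference and positions counted from the first printed base. Counted back from the RefSeq start, the ISRE pattern matched the minus strand of IFNL2 and IFNL3 at -176 to -167 and of IFNL1 at -208 to -199, overlapped there by another match at -214 to -205. IFNB1 did not hold that pattern. The IRF core site AAGTGAAA was present in all 4 windows of 250 bases, at -74 to -67 in IFNL1 (in a stretch that is not printed), at -70 to -63 in IFNL2 and IFNL3, and at -76 to -69 in IFNB1. In IFNB1 it is followed by the NF-kB match GGGAAATTCC at -66 to -57, both within the virus-inducible enhancer of that gene. IFNL2 and IFNL3 had the NF-kB match GGGGCTCCCC, which fits the consensus on both strands, and IFNL1 had none. Of 35116 RefSeq windows of the same length, 3.02% held the ISRE pattern, 1.37% AAGTGAAA and 9.96% the NF-kB consensus. IFNLR1 and IL10RB held none of these patterns. The retinoic acid receptor core site AGGTCA (12.1% of windows) and retinoic acid response elements of the DR5 (0.074%) and DR2 (0.0313%) types matched none of the 6 windows. The AP-1 pattern TGANTCA (6.57%) also matched none. A match describes letters, not binding.

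The 4 lambda ligand genes and IFNB1 stood lower in all 3 RARG-KO libraries than in any WT library. IFNLR1, the lambda-specific receptor subunit, was higher in every RARG-KO library, and the groups overlapped for IL10RB. Thus in 5 members the groups were apart with RARG-KO lower and in 1 with RARG-KO higher, where over all 16996 genes tested the libraries were apart in 31.1% with RARG-KO lower and in 31.5% with RARG-KO higher. These shares stand beside counts that the choice of members fixed in part. As these are bulk libraries, fewer cells that express a gene and less RNA per cell cannot be told apart.

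IFNL1, the ligand gene with the most reads, had 1831, 1883 and 1944 reads in WT replicates 1, 2 and 3, and 123, 135 and 151 reads in RARG-KO. On the CPM scale these were levels of 63.3, 62.8 and 64.7 (63.6 ± 0.953, SD, n = 3) against 3.84, 4.40 and 4.81 (4.35 ± 0.483). All RARG-KO libraries were thus far below WT, at 6.83% of the WT mean, with a log2 fold change of -3.87 ± 0.07 (SE from the edgeR fit).

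IFNL2 had levels of 22.0, 22.0 and 18.5 CPM in WT, and 1.44, 1.79 and 1.37 CPM in RARG-KO. The RARG-KO mean was 7.35% of that in WT (log2 -3.76 ± 0.12, SE). IFNL3 had 24.0, 22.3 and 24.7 CPM in WT, and 2.16, 0.782 and 1.46 CPM in RARG-KO, 6.19% of WT (log2 -4.00 ± 0.15). RARG-KO replicate 2 was the lowest of its group for IFNL3 and the highest for IFNL2. One annotated transcript of IFNL2 and one of IFNL3 were identical at 98.0% of 734 aligned bases, and 32.0% of the 50-base windows of the IFNL2 transcript occurred unchanged in that of IFNL3 (5.17% of the 100-base windows). How such reads were assigned is not stated, so the split between both genes is uncertain. If such reads were dropped, the counts of IFNL2 and IFNL3, and their sum, are too low in both groups. Counted as 1 gene, IFNL2 and IFNL3 had a log2 fold change of -3.89. IFNL1 shared no 50-base window with either, with identities of 79.8% and 79.0% to IFNL2 and IFNL3.

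IFNL4, whose product signals through the same receptor, had few reads: 54, 49 and 63 in WT, and 1, 2 and 1 in RARG-KO. All 3 RARG-KO libraries were below 3 counts, the floor used here, which is 0.0937 to 0.0977 CPM in RARG-KO. The group sums of 166 and 4 reads differed 43.9-fold after scaling to library size (95% interval 16.8 to 163, for counting error only). The fitted log2 fold change was -5.33 ± 0.43 (SE), a value that depends on the prior count and sets no bound. The pseudogene IFNL3P1 of the same cluster had 124 WT reads and 2 RARG-KO reads, and IFNL4P1 had 2 and 0.

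Together the lambda genes had 3216, 3260 and 3308 reads in WT and 239, 216 and 241 in RARG-KO, or 110 ± 1.26 and 7.39 ± 0.324 CPM (SD, n = 3). The summed level in RARG-KO was 6.72% of that in WT, and the libraries of each group lay close together. The mix of ligands within a library does not depend on its size. IFNL1 made up 56.9%, 57.8% and 58.8% of the lambda reads in WT, and 51.5%, 62.5% and 62.7% in RARG-KO, where exact binomial 95% intervals ran from 44.9% to 69.0%. The RARG-KO shares lay on both sides of the WT shares. The share of IFNL1 is too high in both groups if reads that fit both IFNL2 and IFNL3 were dropped. IFNL3 made up 20.5% to 22.5% in WT and 11.1% to 28.9% in RARG-KO, a wider spread. IFNL4 made up 1.50% to 1.90% in WT and 0.415% to 0.926% in RARG-KO, from 1 or 2 reads.

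**Figure D1:**
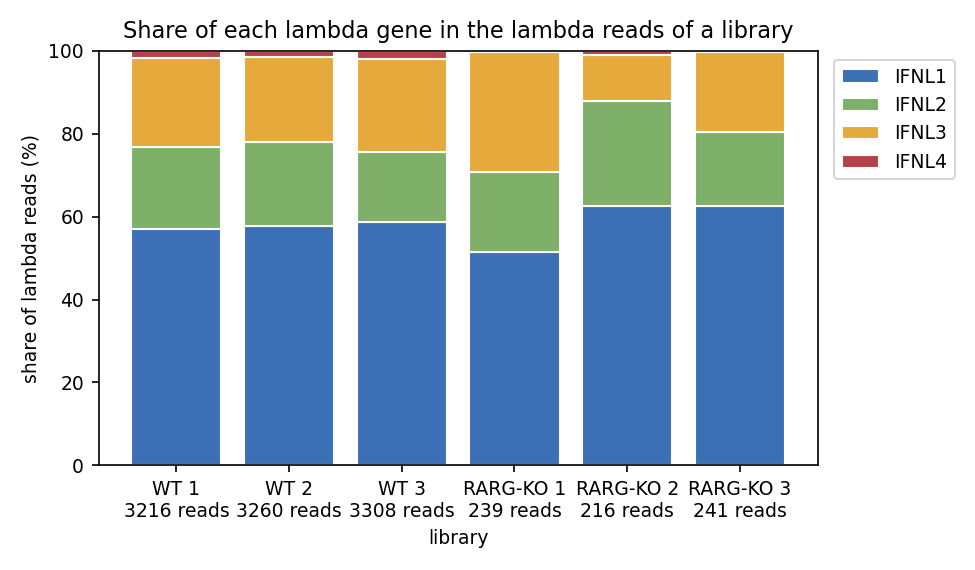
Share of each lambda gene in the summed lambda reads of a library, in percent, from the counts as deposited. Each library has 1 bar with its number of reads under it. IFNL1 takes 56.9% to 58.8% in WT and 51.5% to 62.7% in RARG-KO, where each library has 216 to 241 lambda reads in place of 3216 to 3308.

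IFNB1, which encodes the type I interferon made by most cell types, was far less abundant. It had 27, 42 and 44 reads in WT (1.27 ± 0.289 CPM, SD, n = 3) and 5, 2 and 10 in RARG-KO (0.180 ± 0.128 CPM). Every RARG-KO library was below every WT library, at 14.2% of the WT mean, with a log2 fold change of -2.79 ± 0.41 (SE) that became -3.46 without RARG-KO replicate 3. There were 86.6 lambda reads for each IFNB1 read in WT and 40.9 in RARG-KO, with 24.1 to 108 among the RARG-KO libraries, a range that includes the WT values of 75.2 and 77.6 but not the 119 of WT replicate 1.

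Other interferon ligands were nearly silent. Of 17 further interferon genes listed, 1 was tested and 13 had 0 reads in all 6 libraries, IFNG, the gene of interferon gamma, among them. IFNE, which encodes interferon epsilon, an epithelial type I interferon, had 33, 19 and 20 reads in WT and 42, 57 and 41 in RARG-KO. It rose, opposite to IFNB1 on the same chromosome (log2 0.87 ± 0.28, SE; edgeR adjusted p = 0.0114). The call was lost without WT replicate 2 (edgeR adjusted p = 0.0502), WT replicate 3 (0.0550) or RARG-KO replicate 2 (0.0670). IFNA1 had 0, 1 and 2 reads in WT and 12, 5 and 3 in RARG-KO, below the filter.

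Of the receptor subunits, IFNLR1 confers specificity for lambda ligands. It had 32, 36 and 28 reads in WT, a level of 1.08 ± 0.137 CPM (SD, n = 3), and 71, 52 and 46 reads in RARG-KO, 1.79 ± 0.386 CPM. The lowest RARG-KO library, at 1.46 CPM, was above the highest WT library, at 1.20 CPM. The RARG-KO mean was 1.66-fold that of WT (log2 0.73 ± 0.24, SE), and the log2 value lay between 0.55 and 0.86 over the alternatives run.

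IL10RB, the shared subunit, had 25.5, 27.7 and 30.4 CPM in WT, and 27.1, 26.4 and 25.5 CPM in RARG-KO. The groups overlapped, with a log2 fold change of -0.08 ± 0.07 (SE). In the annotation 38.1% of the exon bases of IL10RB are shared with IFNAR2-IL10RB, a read-through gene with 0 WT reads and 3 RARG-KO reads. If reads that fit both genes were dropped, the IL10RB counts are too low in both groups. How the authors treated them is not stated in the sources used here.

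Per kilobase of exon, the levels in WT (CPM per kb, mean ± SD, n = 3) were ordered IFNL1 (74.2 ± 1.11), IFNL3 (30.7 ± 1.62), IFNL2 (28.3 ± 2.73), IL10RB (6.12 ± 0.548), IFNB1 (1.47 ± 0.337), IFNL4 (1.02 ± 0.126) and IFNLR1 (0.219 ± 0.0278). The WT libraries overlapped between IFNL3 and IFNL2 and between IFNB1 and IFNL4. In RARG-KO the order on the same scale was IL10RB (5.79 ± 0.179), IFNL1 (5.07 ± 0.564), IFNL2 (2.08 ± 0.308), IFNL3 (1.90 ± 0.891), IFNLR1 (0.364 ± 0.0785), IFNB1 (0.209 ± 0.149) and IFNL4 (0.0233 ± 0.0106). There IL10RB and IFNL1 overlapped, as did IFNL2 and IFNL3, and IFNLR1 and IFNB1. On these counts IFNL1 was thus the leading member in WT, while IFNLR1 had the lowest level per length there. In RARG-KO the ranges of IL10RB (5.60 to 5.96) and IFNL1 (4.48 to 5.61) barely overlapped, and IL10RB had the higher mean. IFNL2 and IFNL3 would stand higher on this scale if reads that fit both were dropped. The same holds for IL10RB if reads that also fit IFNAR2-IL10RB were dropped.

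The other genes of the pathway, from hand-written lists grouped by role, were tested across all genes. Over all 16996 genes tested, 58.0% passed an adjusted p of 0.05 by edgeR (quasi-likelihood test), 28.7% higher and 29.3% lower in RARG-KO, with a median log2 of 0.01.

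Genes that sense nucleic acid and induce interferon were mostly lower in RARG-KO. Of 27 tested of 32 listed, 18 fell, 2 rose and 7 missed the threshold. The share that fell was 66.7%, against 29.3% of all genes, and the median log2 was -0.27. IFIH1, which encodes the cytosolic RNA sensor MDA5, fell from 154 ± 7.45 to 37.2 ± 3.15 CPM (SD, n = 3), a log2 change of -2.05 ± 0.05 (SE) with an edgeR adjusted p of 7.99e-18. RIGI, the gene of the RNA sensor RIG-I, fell from 241 ± 2.12 to 93.3 ± 1.96 CPM (log2 -1.37 ± 0.03). IRF1, a transcription factor gene that acts on lambda promoters in epithelial cells, fell from 68.9 ± 1.17 to 29.4 ± 1.48 CPM (log2 -1.23 ± 0.05). DHX58, the gene of the third RIG-I-like receptor, LGP2, fell from 9.01 to 0.925 CPM (log2 -3.28 ± 0.17). RIGI, IFIH1, DHX58 and IRF7 are themselves induced by interferon.

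By contrast, MAVS, the mitochondrial adaptor of RIG-I and MDA5, rose (log2 0.37 ± 0.03, SE), as did MYD88, an adaptor of Toll-like receptors (0.31 ± 0.05). Among the factors that bind ligand promoters, IRF7 fell by a log2 of -0.68 ± 0.07 and IRF3 by -0.18 ± 0.06. RELA, the NF-kB p65 gene, stood at -0.08 ± 0.04 and did not pass. IRF3, with an edgeR adjusted p of 0.00894, no longer passed when WT replicate 3 (0.0503) or RARG-KO replicate 2 (0.0578) was left out. The DNA sensor gene CGAS had 40.1 ± 3.09 and 38.9 ± 2.07 CPM and did not pass, whereas its adaptor gene STING1 fell (log2 -0.98 ± 0.11). TLR3, the gene of the endosomal sensor of double-stranded RNA, had 27 WT reads and 6 RARG-KO reads and was below the filter.

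Other receptors of the class II cytokine family, to which both lambda subunits belong, went in both directions. Of 7 tested of 10, 3 rose, 2 fell and 2 did not pass the test. The share passing was 71.4%, against 58.0% of all genes, and the median log2 was 0.13. IL22RA1, the interleukin-22 receptor subunit gene that lies next to IFNLR1 and whose product also pairs with IL10RB, went up from 1.59 ± 0.184 to 4.48 ± 0.163 CPM (SD, n = 3), a log2 change of 1.50 ± 0.16 (SE) with an edgeR adjusted p of 7.70e-08. IFNGR1 (0.65 ± 0.06) and IFNAR1 (0.18 ± 0.05) rose. IFNAR2 (0.13 ± 0.08) and IFNGR2 (-0.06 ± 0.04), near IL10RB on chromosome 21, did not pass. In the annotation 83.2% of the exon bases of IFNAR2 are shared with other genes, 44.2% on the same strand. Its counts are therefore too low if reads that fit more than 1 gene were dropped. The falls of F3 (-0.50 ± 0.17) and IL20RB (-0.49 ± 0.21) were not stable, and without any single library at most 1 of them remained.

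Of 9 signalling genes below the receptor, all tested, 4 fell, 1 rose and 4 did not pass the test. Thus 55.6% passed, near the 58.0% of all genes, and the median log2 was -0.13. STAT3, a transcription factor gene shared by many cytokine receptors, fell by a log2 of -0.39 ± 0.03 (SE), and CREBBP, a coactivator gene, by -0.14 ± 0.04. JAK1, the kinase gene that serves IFNLR1, rose by 0.13 ± 0.03, while TYK2, which serves IL10RB, had a value of -0.03 ± 0.05 and did not pass. STAT2 (-0.13 ± 0.05; edgeR adjusted p = 0.0275) lost its call with upper-quartile factors (0.114), with no filter on low counts (0.0502), with the replicate number as a block (0.0606) and without any 1 of the 5 libraries WT 1, WT 2, RARG-KO 1, RARG-KO 2 and RARG-KO 3 (the lowest at 0.0504, without RARG-KO 2). IRF9 was low in both groups, at 1.45 ± 0.459 and 1.63 ± 0.317 CPM.

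Negative regulators of the receptor were mixed. Of 13 tested, 7 fell, 3 rose and 3 did not pass the test. The share passing was 76.9%, against 58.0% of all genes, and the median log2 was -0.09. USP18, an interferon-induced inhibitor of the type I receptor, fell from 13.2 ± 0.126 to 6.94 ± 1.13 CPM (SD, n = 3), a log2 change of -0.92 ± 0.10 (SE) with an edgeR adjusted p of 9.92e-08. SOCS1, which blocks JAK kinases downstream of lambda ligands, had 62, 71 and 42 reads in WT and 40, 16 and 27 in RARG-KO, and fell (-1.16 ± 0.29), as did PTPN1 (-0.81 ± 0.04) and SOCS2 (-0.91 ± 0.06). SOCS3 (0.57 ± 0.05), PIAS3 (0.34 ± 0.04) and PIAS4 (0.20 ± 0.06) rose.

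Interferon-induced target genes had a median log2 of -0.99, the lowest of the pathway lists. Of 34 tested of 37, 24 fell (70.6%, against 29.3% of all genes), 4 rose and 6 did not pass. IFIT2 (-2.98 ± 0.03), IFIT3 (-3.20 ± 0.04) and IFIT1 (-2.59 ± 0.04, log2 ± SE), a gene family whose products bind foreign RNA, had the smallest adjusted p among the falls. OAS1, an activator of RNase L, went up from 3.49 ± 0.184 to 10.5 ± 1.85 CPM (SD, n = 3), a log2 change of 1.59 ± 0.13 (SE) with an edgeR adjusted p of 1.13e-09. EIF2AK2, the gene of the RNA-activated kinase PKR, rose by a log2 of 0.26 ± 0.04. LGALS9 also rose (1.87 ± 0.44), from a level of 0.190 ± 0.0998 CPM. OAS3, another activator of RNase L, rose by 0.12 ± 0.04 with an edgeR adjusted p of 0.0254, which became 0.140 with WT replicate 3 left out, 0.106 with RARG-KO replicate 1 left out, 0.0916 with RARG-KO replicate 3 left out and 0.0695 with the replicate number as a block. These targets respond to type I as well as type III interferon, so the list does not separate the ligands. Whether either type had a part in the values of the targets was not tested.

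Genes that edit or clear nucleic acid were near the rest of the transcriptome, with 2 rises, 3 falls and 6 not passing among 11 tested of 12 (45.5% passed, against 58.0% of all genes) and a median log2 of 0.05. ZC3HAV1, the gene of the antiviral protein ZAP, fell from 222 ± 4.34 to 114 ± 2.35 CPM (SD, n = 3), a log2 change of -0.96 ± 0.03 (SE) with an edgeR adjusted p of 1.37e-15, and XRN1, an RNA exonuclease gene, by -0.29 ± 0.06. RNASEH2A rose (0.18 ± 0.05). ADAR, which edits double-stranded RNA, had 445 ± 6.64 and 465 ± 11.9 CPM and did not pass (edgeR adjusted p = 0.0717), but passed with upper-quartile factors (0.00708) and without RARG-KO replicate 2 (0.00385). RNASEH2C (0.14 ± 0.05, edgeR adjusted p = 0.0356) and SAMHD1 (-0.14 ± 0.06, 0.0439) lost their calls in most alternatives. TREX1 was listed at 0 in every library, and 100% of its exon bases are shared with ATRIP on the same strand.

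**Figure D2:**
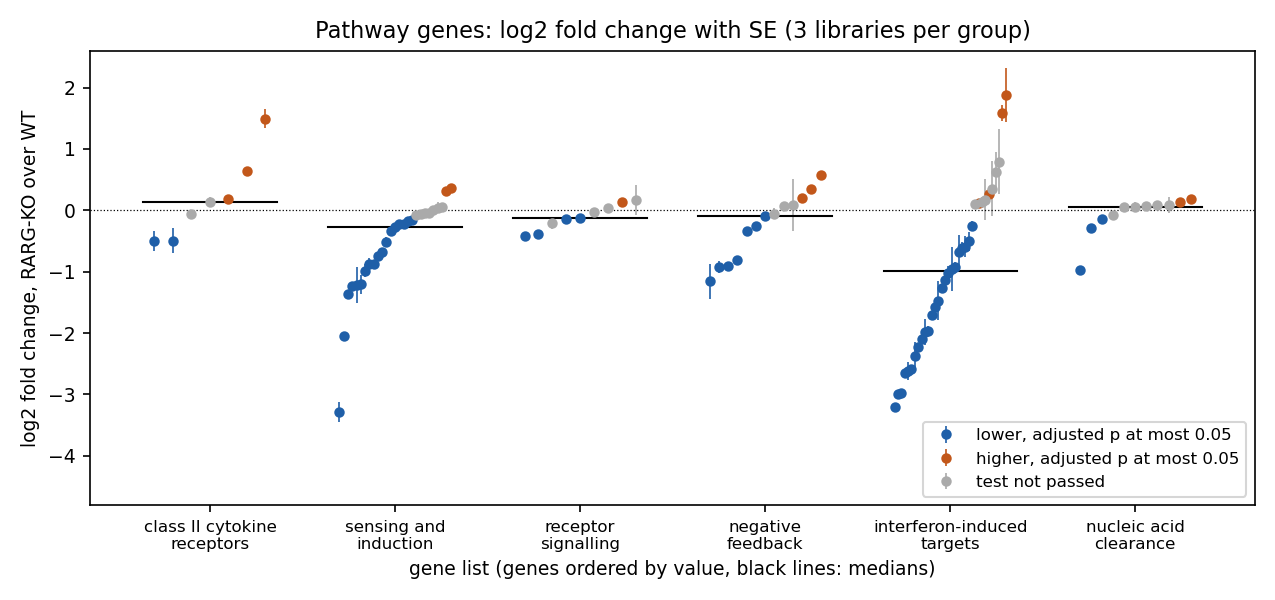
Log2 fold change (RARG-KO over WT, 3 libraries per group) of each tested gene of 6 pathway lists, with SE bars, coloured by the edgeR call, and black lines at list medians. Of the interferon-induced targets 24 of 34 fell with a median of -0.99, while the nucleic acid clearance list has its median at 0.05.

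The lambda genes lie in a stretch of chromosome 19 in which other genes were lower too. Of the 20 tested protein-coding genes on each side, spanning 1.62 Mb, 35 of 40 fell, 0 rose and 5 missed the threshold, and the median log2 was -0.72 (29.3% of all genes tested fell). Within 250 kb, 15 of 17 tested genes fell. LRFN1, the nearest to IFNL1, fell from 50.6 ± 2.31 to 20.9 ± 0.680 CPM (SD, n = 3), a log2 change of -1.27 ± 0.06 (SE) with an edgeR adjusted p of 1.20e-13. PAK4, a kinase gene, fell by a log2 of -0.82 ± 0.03, and PAF1, a gene of a transcription elongation complex, by -0.71 ± 0.03, from a level of 1446 ± 24.4 CPM. GMFG (-0.19 ± 0.29) and NCCRP1 (-0.21 ± 0.23), at about 1 CPM, did not pass.

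PANC1 is known for an amplified segment on the long arm of chromosome 19 that includes PAF1 and PAK4. Copy number was not measured in these libraries, and its part in the values of the lambda genes was not tested. With the median of the 40 neighbours subtracted, the log2 values of IFNL1, IFNL2, IFNL3 and IFNL4 were -3.15, -3.05, -3.28 and -4.61. Before subtraction the lowest neighbour, CLC, a gene of a granulocyte galectin, stood at -3.18 ± 0.64, and the lambda genes at -3.76 to -5.33.

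**Figure D3:**
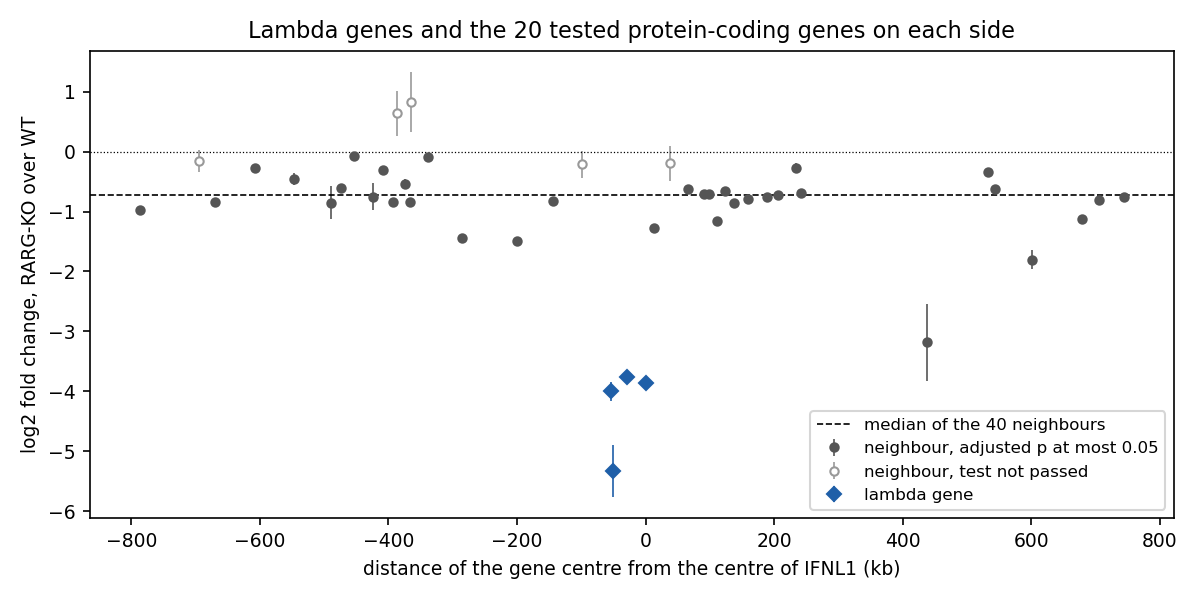
Log2 fold change (RARG-KO over WT, with SE bars) of the lambda genes and of the 20 tested protein-coding genes on each side, against the distance of each gene's centre from that of IFNL1 in kb. Neighbours scatter around a median of -0.72, and the lambda genes lie at -3.76 to -5.33.

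Around the other members, neighbours went in both directions, with more rises than falls. Over all genes tested, 28.7% rose and 29.3% fell. Of 40 neighbours of IFNLR1, 20 rose and 14 fell (median log2 0.10), of IL10RB 16 and 9 (0.09), and of IFNB1 19 and 10 (0.12). These neighbours spanned 3.11 Mb, 10.5 Mb and 25.6 Mb, wider than the 1.62 Mb at the lambda genes. Within 250 kb IFNB1 had only 2 tested genes. Of the 7 tested genes within 250 kb of IFNLR1, 5 rose and 2 fell. The epithelial factor gene GRHL3 (1.33 ± 0.06) and the muscle gene MYOM3 (1.27 ± 0.36) rose (log2 ± SE), as did IL22RA1, STPG1 (0.29 ± 0.07) and SRSF10 (0.12 ± 0.04), while NIPAL3 (-0.24 ± 0.05) and PNRC2 (-0.17 ± 0.04) fell.

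The profile of IFNL1 over the 6 libraries (mean-centred log2 CPM, Euclidean distance, a description only) was close to those of PAPSS2 (distance 0.221), MARCKS (0.332), CA8 (0.338) and AK4 (0.351), 4 of the 5 nearest among 13279 protein-coding genes. PAPSS2 makes the sulfate donor of cells, and MARCKS encodes a membrane-bound actin regulator. CA8 is a carbonic anhydrase-related gene, and AK4 encodes a mitochondrial adenylate kinase. PAPSS2 went from 55.4 ± 2.23 to 3.81 ± 0.0637 CPM (SD, n = 3). IFNL2 (distance 0.469) would rank 9 and IFNB1 (1.96) 198 in the same ordering, in which the profile mainly reflects the difference between the groups.

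As a check of the label, all 6 epithelial markers were detected in both groups, at uneven levels. The keratin gene KRT8 had 1927 ± 27.7 and 901 ± 33.7 CPM in WT and RARG-KO (SD, n = 3), and KRT18 and KRT19 were also abundant. KRT7 (8.39 and 3.39 CPM), EPCAM (7.98 and 5.12) and CDH1 (3.07 and 12.7) were low. CDH1, the E-cadherin gene, rose, and the other 5 fell, with a median log2 of -1.06 over the 6. Of 12 leukocyte markers, 3 were tested, ITGAM and CD14 falling and IL3RA rising. Their summed level was 5.71 to 5.99 CPM in WT and 2.25 to 3.44 CPM in RARG-KO, in WT mostly ITGAM, and its part in the interferon values was not tested. PTPRC, which encodes the pan-leukocyte protein CD45, had at most 3 reads in a library, and CLEC4C, a marker of plasmacytoid dendritic cells, the main interferon producers of blood, had 0 in all 6. Summed fibroblast markers were higher in RARG-KO (208 to 221 CPM, against 103 to 108), nearly all COL1A1. Of the 2 tested, COL1A1 rose (log2 1.07 ± 0.04, SE) and COL3A1 fell (-0.81 ± 0.16), and DCN was at 0. Summed endothelial markers were higher (5.24 to 5.93 CPM, against 1.45 to 2.07), mostly KDR.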

How the data were processed

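The authors deposited raw read counts for 60675 Ensembl identifiers in a single table. Per the submitters' processing notes, the tools were featureCounts, DESeq2, HISAT2 2.1.0 and Bowtie2 2.2.3, and the builds GRCh38 and hg38. Their roles and settings, the annotation release and the use of strand are not stated in the sources used here. Symbols were found for 56558 identifiers, and positions and exon lengths come from GENCODE release 29 (57055 identifiers).

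Columns were assigned by name. RARG-KO and WT were compared with edgeR 4.0.16 in R 4.3.3 (quasi-likelihood F test, TMM factors, filterByExpr, group as the only term, Benjamini-Hochberg adjustment over 16996 genes, threshold 0.05). The test was checked on simulated data in which few genes were changed. In these libraries 58.0% of genes passed, a setting that the check does not cover. SE is the absolute log2 fold change divided by the square root of F. Log2 CPM used a prior count of 2.

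Alternatives were DESeq2 size factors, upper-quartile factors, no filter, DESeq2 1.42.0, leaving out each library, a replicate block, summed IFNL2 and IFNL3, and subtraction of neighbours. Replicates differed beyond sampling noise (chi-square per degree of freedom 2.18 to 5.59) and were all used. The gene lists were written by hand from general knowledge of the pathway and of cell type markers. The members and lists were chosen with earlier results of these data known. In each list up to 3 risen and 3 fallen genes with the smallest adjusted p were named, or all where 5 or fewer passed in a direction, with tested genes within 250 kb of a member and the 5 genes most like IFNL1. Other named genes, among them DHX58, IRF3, IRF7, STING1, CGAS, RELA, TLR3, SOCS1, IFNA1, TREX1, CLC and those given as not passing, were chosen after their values were seen. The motifs were also chosen with the windows in view. Some genes picked by the rule are not reported here.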

Additional observations from a re-analysis of the deposited data

How the results depend on the processing

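The log2 fold changes of all 7 members kept their direction in every alternative run (-3.94 to -3.15 for IFNL1, 0.55 to 0.86 for IFNLR1, -0.17 to -0.01 for IL10RB), and the count over all genes stayed between 9081 and 10126. Values that moved by more than the spread between replicates were those after subtraction of the neighbours' median (IFNL1 -3.15, IFNL2 -3.05, IFNL3 -3.28, IFNL4 -4.61) and that of IFNL4 without RARG-KO replicate 2 (-5.71). With single libraries left out, IFNL4 ran from -5.71 to -5.15. The IFNL1 share in WT without IFNL4 was 58.8%. Small counts moved as follows. Falling class II receptors, 2 in the report, numbered 1 with upper-quartile factors, with DESeq2 and with the replicate block, and 0 to 1 with single libraries left out. Rising nucleic acid clearance genes, also 2, numbered 1 without a filter, with DESeq2 and with the replicate block, and 1 to 2 with single libraries left out. Rising other interferon ligands numbered 2 without a filter and 0 to 1 with single libraries left out, and rising signalling genes 1 to 2. Of 74 called pathway genes, 12 lost the call in at least 1 alternative, none of them among the 27 of at least 2-fold change, and 6 of the others tested gained one. No shared effect of the replicate numbers was seen. Correlations of same-numbered deviations were 0.01, -0.05 and -0.01, and those of differently numbered libraries ran from -0.05 to 0.06. With 3 libraries per group, these values cannot show whether libraries were prepared in pairs. With the other prior count, 4 of the 5 genes most like IFNL1 were kept. Depth limits IFNL4, IFNB1 and IFNLR1, which had at most 71 reads in any library.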
